A study of Mus musculus with 94 samples.

Results

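The inguinal fat of mice that had been obese and had then spent 6 weeks on a low-fat diet was compared with that of lean mice of the same age. Inguinal fat is a subcutaneous depot of the mouse groin. The comparison takes the inguinal libraries labelled medium-term, 6 from regression mice and 6 from lean control mice, 12 of the 94 libraries of the series. The regression mice ate a high-fat diet (D12492) for 18 weeks from 10 weeks of age and then a low-fat diet (D12450J) for 6 weeks, and the lean mice ate the low-fat diet throughout. All 12 were male C57BL/6JBomTac mice, about 34 weeks old by the sum of these times, with no genetic change, and poly(A) RNA of frozen tissue was sequenced in pairs of reads. Lean and obese mice at the end of the high-fat diet (6 and 5), lean and regression mice at 2 and at 12 weeks (6 each) and the epididymal fat of the same 12 mice served for comparison. By the labels, each library is a biological replicate. Mice were housed in shared cages, and the sources used here do not say which mice shared one.

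White adipocytes take up glucose under insulin, break it down by glycolysis, and turn part of it into fatty acids that are stored as triglyceride. Glycolysis splits glucose to pyruvate, pyruvate dehydrogenase carries pyruvate into the mitochondrion, and part of the glucose is kept as glycogen. In obesity adipocytes enlarge and the matrix around them is rebuilt by fibroblasts, proteases and inhibitors of proteases. The inguinal depot also holds beige adipocytes, which burn fuel for heat.

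The tissue carried the markers of fat and, in some libraries, those of its neighbours. The 14 adipocyte markers summed to between 31259 and 38106 CPM (a gene's counts scaled to one common library size, after normalisation between libraries) in the 12 libraries, and the 2 groups overlapped. The 15 skeletal muscle markers summed to 44.6 to 50642 CPM in the lean mice (median 5539) and to 21.5 to 13022 CPM in the regression mice (median 420.2). Lean replicates 4 and 6 and regression replicate 6 were above 10000 CPM, and the first principal component of the 12 libraries, 49.8% of the variance, placed these 3 at one end. Regression replicate 3 stood apart in skin and hair markers (263 CPM, at most 24.8 elsewhere) and lean replicate 5 in markers of B cells and lymph nodes (379 CPM, at most 53.1 elsewhere). Library totals were 7066912 to 12128432 counts in the lean and 8888356 to 15182950 counts in the regression mice (two-sided exact permutation p = 0.0584). In bulk tissue, fewer cells of a type and less RNA per cell cannot be told apart.

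**Figure D1:**
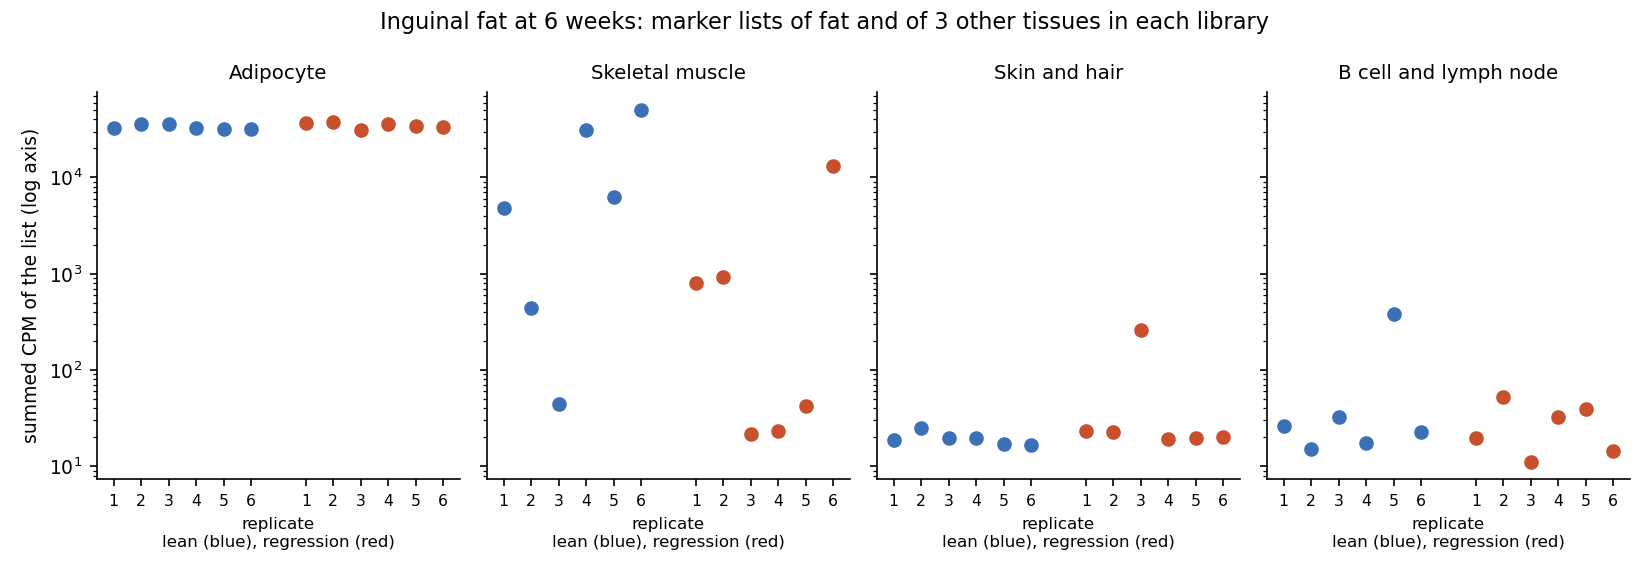
Summed CPM (log axis) of the marker lists of adipocytes, skeletal muscle, skin and hair, and B cells and lymph node in each of the 6 lean (blue) and 6 regression (red) libraries. The adipocyte sums lie in a narrow band, the muscle sums run from 21.5 to 50642 CPM, and 1 library each stands apart for skin (263 CPM) and lymph node (379 CPM).

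A small set of genes still set the former obese mice apart from lean ones 6 weeks into the low-fat diet. Among those lower were Sorcs2, Pth1r, Syngr1, Egln3 and 3 enzymes of glycolysis, and among those higher Klf14, Bcat1, Mdk and the protease inhibitors Timp3 and Timp4. The main enzymes of fatty acid synthesis and the classical adipocyte genes were not among either. In the fit of edgeR over all 47 inguinal libraries 144 genes passed an adjusted p under 0.05 (1.04% of 13899 tested), 77 as higher (0.554%) and 67 as lower (0.482%). At an unadjusted p under 0.05 these were 1103 (7.94%) and 1399 (10.1%), and the median over all genes tested was -0.02 on the log2 scale. Of the 13899 genes 7467 were below 0 and 6432 above. With upper-quartile scaling the calls were 143 higher and 77 lower.

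Of the 77 higher genes 19 differed by more than 2-fold and 34 by less than 1.5-fold, with a median log2 fold change of 0.63. Of the 67 lower genes 26 differed by more than 2-fold and 25 by less than 1.5-fold (median -0.82). The 6 regression mice all lay above the 6 lean mice for 48 of the 77 genes and all below for 36 of the 67; over all genes tested 1.4% did not overlap with regression higher and 1.09% with regression lower. Of the 144 genes 142 were called in the same direction in the authors' deposited table. That table called 233 genes higher and 203 lower, of 13967 with an adjusted p. It comes from the same libraries, so the overlap is not independent of the calls made here.

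The number of calls moved with single libraries. It was 55, 64, 68, 69, 82 and 88 without regression replicate 3, lean replicate 6, regression replicate 5, lean replicate 1, regression replicate 2 and lean replicate 5, and 217, 221, 253 and 330 without regression replicate 1, lean replicate 2, regression replicate 6 and regression replicate 4. It was 42 without the 3 libraries rich in muscle markers. It was 1 (Pdzk1ip1) when the libraries with skin and lymph node signal were left out as well. All 144 genes kept their sign in both fits, but these use part of the same libraries by which the genes were chosen. With the muscle signal as a term 57 of the 77 higher and 26 of the 67 lower genes passed. With each run of neighbouring mouse numbers as a random block 31 genes were called, and the 2 series of mouse numbers fitted apart gave 3 (replicates 1 to 3) and 5 (replicates 4 to 6). Of the 38 genes called and named by the rule given under the methods, 16 passed without each of the 12 libraries in turn: Sorcs2, B3galt1, Syngr1, Hebp2, Pth1r and Egln3 among the lower, and Klf14, Mdk, Map1a, Bcat1, Abat, Timp3, Timp4, Spats2l, Fam124a and Osbp2 among the higher.

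**Figure D2:**
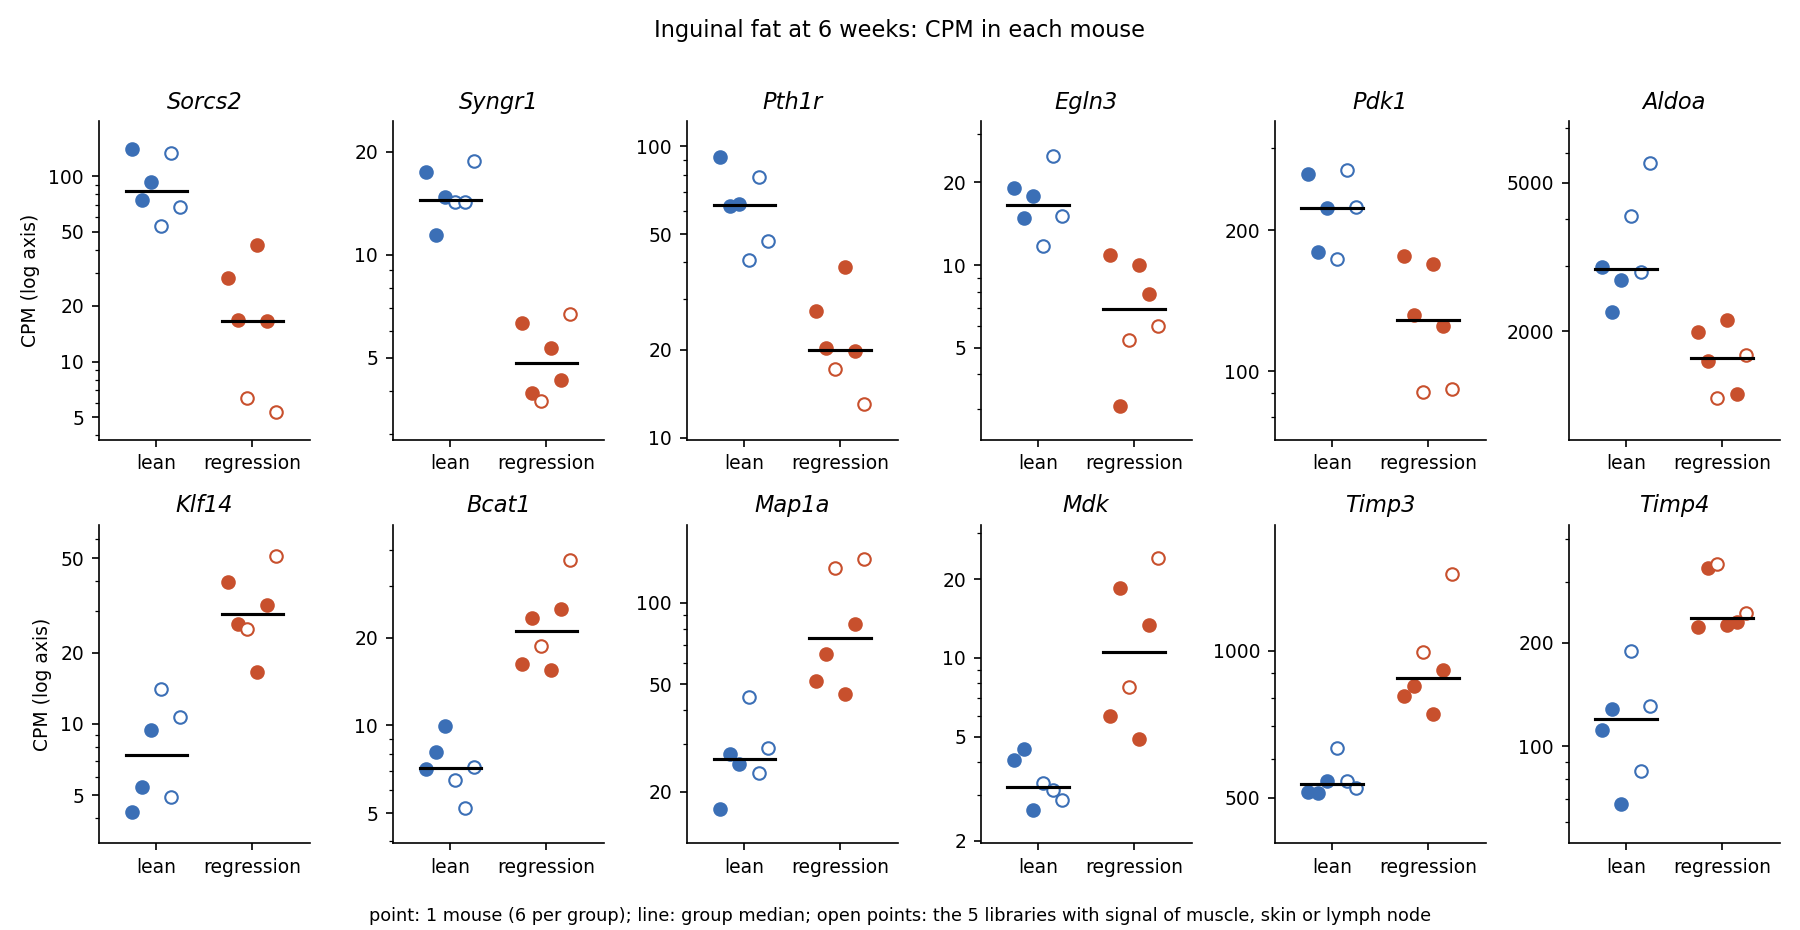
CPM (log axis) of 6 genes that were lower (top) and 6 that were higher (bottom) in regression mice, 1 point per mouse with the group median as a line; open points are the 5 libraries with signal of muscle, skin or lymph node. The groups do not overlap for 11 of the 12 genes, and overlap for Pdk1 between 174 and 177 CPM.

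Sorcs2, Pth1r and Adrbk2 fell without overlap of the groups. Sorcs2 encodes a sorting receptor of the VPS10 family, which binds neurotrophin precursors and directs proteins inside the cell; the gene lies at chr5:36017180-36398139 (mm10). Its level was 53.9 to 139.6 CPM in the lean mice (median 83.5) and 5.35 to 42.8 CPM in the regression mice (median 16.6). Each regression mouse was below each lean mouse, with regression replicates 3 and 6 the lowest. The log2 fold change was -2.28 ± 0.38 (SE of the fit, adjusted p = 0.000873). Of the 3 VPS10 receptor genes tested Sorcs2 alone passed, and the median of the 3 was -0.92.

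Pth1r, the receptor of parathyroid hormone and its related peptide, was 40.6 to 92.1 CPM in lean (median 63.0) and 13.004 to 38.5 CPM in regression mice (median 20.1). The groups did not overlap (-1.50 ± 0.28, adjusted p = 0.00195). Adrbk2, a kinase that switches off active G protein-coupled receptors, was picked after its values were seen. It fell by 1.18 on the log2 scale, from a median of 71.8 to 30.8 CPM (adjusted p = 0.000873), again without overlap.

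Atp1b2, a beta subunit of the sodium pump, which exports sodium and imports potassium, fell by 1.40 ± 0.34 (adjusted p = 0.0269). Its lean values of 38.7 to 168 CPM were highest in the 2 lean mice with the most muscle RNA, and its adjusted p was 0.0774 with the muscle signal as a term. Without lean replicate 6 it was 0.118, and it passed in 7 of the 12 fits with 1 library left out.

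Among ion channels and exchangers 2 of 14 genes fell and 1 rose, with a median of 0.15 (0.07 without the 5 libraries with signal of muscle, skin or lymph node). Kcng4, a modifier subunit of potassium channels, was 4.30 to 26.2 CPM in the lean and 0.192 to 3.70 CPM in the regression mice, without overlap (-2.81 ± 0.68, adjusted p = 0.0283). Slc9a2, a sodium-proton exchanger, was 4.99 to 17.9 against 0.523 to 5.27 CPM, with 1 regression mouse above the lowest lean one (-2.42 ± 0.59, adjusted p = 0.0277). Lrrc8a, the core subunit of the volume-regulated anion channel, rose by 0.40 ± 0.10 (adjusted p = 0.0446). Kcng4 and Slc9a2 passed in 7 and Lrrc8a in 4 of the 12 fits with 1 library left out, and the adjusted p of Lrrc8a reached 0.104 without regression replicate 6. Lean replicate 6, the library richest in muscle RNA, had the highest level of Kcng4 and of Slc9a2, and without it their adjusted p was 0.0961 and 0.0826. Without regression replicate 3 the adjusted p was 0.0911 for both, and without regression replicate 5 it was 0.0754 for both. Without regression replicate 2 it was 0.0765 for Kcng4 and 0.0774 for Slc9a2. With the muscle signal as a term it was 0.0702 for Kcng4 and 0.0241 for Slc9a2.

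The other large falls were in genes of different kinds. Syngr1, a membrane protein of small secretory vesicles, was 11.4 to 18.8 CPM in each lean mouse and 3.75 to 6.72 CPM in each regression mouse (-1.58 ± 0.24, adjusted p = 0.000243). No regression mouse reached the lowest lean value. Cadps2, which primes dense-core vesicles for release, was 5.74 to 10.7 against 1.74 to 4.64 CPM, also without overlap (-1.27 ± 0.30, adjusted p = 0.0261). Myo5c, a myosin motor of secretory cells, fell by 1.24 ± 0.32 with overlap of the groups (adjusted p = 0.0411). B3galt1, a galactosyltransferase of the Golgi, fell by 1.82 ± 0.32 (adjusted p = 0.00159), and Hebp2, a heme-binding protein, by 1.57 ± 0.31 without overlap (adjusted p = 0.0042). Phospho1, a phosphatase that frees choline and ethanolamine, fell by 1.19 ± 0.28 (adjusted p = 0.0215), and Tmem56 by 2.29 ± 0.56 (adjusted p = 0.0292). With the muscle signal as a term Phospho1 (0.0702), Tmem56 (0.0561) and Myo5c (0.108) had an adjusted p above 0.05. With 1 library left out Cadps2 passed in 8 of the 12 fits, Phospho1 and Tmem56 in 7 and Myo5c in 4. Their adjusted p-values reached 0.0909 (Cadps2) and 0.108 (Myo5c) without regression replicate 3, and 0.0741 (Phospho1) and 0.108 (Tmem56) without lean replicate 6.

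Aldoa, Pkm and Gpi1, enzymes of sugar breakdown, fell. They were the 3 of 16 glycolysis genes called, and none rose, while 10 were lower and 1 higher at an unadjusted p under 0.05; the median log2 fold change was -0.55, against -0.02 over all genes. Aldoa, aldolase A, which splits the 6-carbon sugar, was 2248 to 5659 CPM in the lean (median 2932) and 1322 to 2140.4 CPM in the regression mice (median 1699). The groups did not overlap, and the 2 highest lean values were in replicates 4 and 6 (-1.01 ± 0.27, adjusted p = 0.047). Pkm, pyruvate kinase, the last step of the pathway, was 1372 to 2388 CPM against 664 to 1219 CPM without overlap (-0.97 ± 0.23, adjusted p = 0.0269). Gpi1, glucose-6-phosphate isomerase, was 271 to 358 against 141 to 254 CPM without overlap (-0.74 ± 0.17, adjusted p = 0.0223). Gapdh (-0.87, adjusted p = 0.0524), Pgk1 (-0.68, adjusted p = 0.0524), Ldha (-0.58, adjusted p = 0.0826) and the muscle form Pfkm (-1.99, adjusted p = 0.125) did not pass, and Hk1 (0.37, adjusted p = 0.076) was above 0 and did not pass; these 5 were picked after their values were seen.

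Muscle is rich in these enzymes. The summed muscle markers ran from 44.6 to 50642 CPM in the lean (median 5539) and from 21.5 to 13022 CPM in the regression mice (median 420.2). None of the 14 muscle genes tested was called, and their median log2 fold change was -2.60. With so wide a spread, the lack of calls does not show equal muscle RNA in the groups. With the muscle signal as a term the 3 log2 fold changes were -0.73 (Aldoa, adjusted p = 0.128), -0.79 (Pkm, adjusted p = 0.0778) and -0.65 (Gpi1, adjusted p = 0.06). Without the 3 libraries rich in muscle RNA the list's median was -0.40. Lean replicate 6 alone moved Aldoa most, to an adjusted p of 0.149. The symbol Aldoa names 2 genes of the GENCODE annotation, and the sources used here do not say how reads were divided between them. With 1 library left out, Pkm passed in 7 of the 12 fits, Gpi1 in 8 and Aldoa in 4, with adjusted p-values of up to 0.0911 (Pkm) and 0.0866 (Gpi1), both without regression replicate 3.

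A pair of genes that the hypoxia-inducible factor is known to switch on fell as well. Egln3, a prolyl hydroxylase that marks this factor for breakdown, was 11.7 to 25.1 CPM in the lean (median 16.5) and 3.07 to 10.9 CPM in the regression mice (median 6.92). No regression mouse reached a lean one (-1.27 ± 0.26, adjusted p = 0.00764, and 0.0196 with the muscle signal as a term). Pdk1, the kinase that shuts off pyruvate dehydrogenase, was 174 to 270.0 CPM against 90.5 to 177 CPM (-0.77 ± 0.20, adjusted p = 0.0451, and 0.0907 with the muscle signal as a term). It passed in 4 of the 12 fits with 1 library left out, with an adjusted p of up to 0.126 without regression replicate 3. Regression replicate 1, the highest of its group, lay above the lowest lean mouse. The other 15 of the 17 hypoxia targets did not pass, among them Vegfa (0.18), Slc2a1 (0.19), Bnip3 (0.19) and Hif1a (0.06), picked after their values were seen, and the list's median was 0.08 (0.02 without the 5 libraries with signal of other tissues).

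The promoters of the 5 lower genes of glycolysis and hypoxia are shown because the hypoxia-inducible factor binds a core of 5 letters, ACGTG or GCGTG, on either strand, and glycolytic genes are among its textbook targets. RefSeq (GRCm38.p6) lists 9 start sites for the 5 genes. A window of 300 bases, 250 before and 50 after each start, was searched for both cores. Capitals mark a match, written CACGT or CACGC where it lies on the other strand. Windows are printed 5′ to 3′ on the gene's strand, the first 2 for Egln3 (chr12:54203825-54204124, minus strand) and Pdk1 (chr2:71872974-71873273, plus strand), the others for Aldoa (chr7:126799205-126799504, minus strand) and Pkm (chr9:59656977-59657276, plus strand).
Egln3: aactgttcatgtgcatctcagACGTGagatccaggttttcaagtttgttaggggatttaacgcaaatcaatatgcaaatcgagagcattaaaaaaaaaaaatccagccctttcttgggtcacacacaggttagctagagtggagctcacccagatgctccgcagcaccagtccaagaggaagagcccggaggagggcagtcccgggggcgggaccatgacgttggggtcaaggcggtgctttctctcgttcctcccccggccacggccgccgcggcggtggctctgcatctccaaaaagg
Pdk1: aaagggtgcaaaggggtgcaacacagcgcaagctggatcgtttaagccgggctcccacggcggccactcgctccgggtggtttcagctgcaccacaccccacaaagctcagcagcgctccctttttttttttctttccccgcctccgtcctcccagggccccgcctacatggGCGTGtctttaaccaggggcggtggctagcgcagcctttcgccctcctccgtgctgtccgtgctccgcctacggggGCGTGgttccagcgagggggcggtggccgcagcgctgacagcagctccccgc
Aldoa: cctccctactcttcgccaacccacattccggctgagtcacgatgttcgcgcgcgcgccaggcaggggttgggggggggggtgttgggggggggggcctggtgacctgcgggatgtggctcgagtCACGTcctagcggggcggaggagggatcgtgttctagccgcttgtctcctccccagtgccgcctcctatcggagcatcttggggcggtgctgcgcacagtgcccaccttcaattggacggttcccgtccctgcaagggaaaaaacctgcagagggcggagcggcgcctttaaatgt
Pkm: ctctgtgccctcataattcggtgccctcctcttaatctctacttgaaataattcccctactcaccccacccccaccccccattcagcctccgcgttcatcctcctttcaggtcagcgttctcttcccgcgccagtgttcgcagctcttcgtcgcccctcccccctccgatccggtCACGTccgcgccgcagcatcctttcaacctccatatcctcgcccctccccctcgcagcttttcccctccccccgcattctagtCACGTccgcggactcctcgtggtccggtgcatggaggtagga
Egln3 had 1 match, Pdk1 2 matches of GCGTG, Aldoa 1 and Pkm 2 matches of ACGTG. The window of Gpi1 and the other start sites of Pdk1 and Pkm had none, and of the 2 other Aldoa windows the one that overlaps the window shown had the same match. No window had CACGTG, a motif that contains ACGTG. Such matches are common: 59.82% of the promoters of genes tested held one or both cores, 24.45% ACGTG and 48.45% GCGTG. A match is a string of letters and not a measured binding site.

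A pair of genes of glycogen handling fell beside these. Gyg, glycogenin, the protein on which a glycogen chain is begun, was 122 to 194 CPM in the lean and 83.7 to 119 CPM in the regression mice without overlap (-0.66 ± 0.15, adjusted p = 0.0165). Phkb, a subunit of phosphorylase kinase, fell by 0.86 ± 0.23 (adjusted p = 0.047). They were the 2 called of 19 genes of glycogen handling, a list written after the values were seen; its median was -0.60, and -0.17 without the 5 libraries with signal of other tissues. With the muscle signal as a term neither passed (adjusted p of 0.0519 for Gyg and 0.123 for Phkb).

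Klf14 led the rises, leaving out genes under 5 CPM on average and those with most of their signal in 1 library. It encodes a zinc-finger transcription factor of an imprinted region, where 1 parental copy is silent, and lies at chr6:30956023-30959078. Its level was 4.27 to 14.1 CPM in the lean (median 7.43) and 16.6 to 51.0 CPM in the regression mice (median 29.0). Every regression mouse was above every lean mouse (1.98 ± 0.42, adjusted p = 0.00854). Mest, an imprinted gene of the same region (chr6:30723547-30748465) known to rise as adipocytes enlarge, was 20.3 to 94.7 CPM against 49.5 to 321 CPM, with a log2 fold change of 2.03 ± 0.61 that did not pass (adjusted p = 0.0751). Cep41, a centrosome gene beside Mest (chr6:30653457-30693749), was picked after its values were seen; it rose by 0.70 ± 0.17 without overlap (adjusted p = 0.0292). Copg2, which lies between Mest and Klf14, was at 0.43 ± 0.24 (adjusted p = 0.353). Klf14 was the 1 of 17 imprinted genes called, and also the 1 of 20 adipogenic transcription factors; the medians of these lists were 0.20 and 0.12.

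Single enzymes of amino acid and fatty acid breakdown rose. Bcat1 and Cpt1a belong to lists whose other members were all below 0, and Abat to none of the lists. Bcat1, the cytosolic enzyme that moves the amino group of branched-chain amino acids, was 5.22 to 9.92 CPM in the lean (median 7.13) and 15.5 to 36.9 CPM in the regression mice (median 21.0). The groups were well apart (1.63 ± 0.31, adjusted p = 0.00279). In the list for the breakdown of branched-chain amino acids it was the 1 of 20 called, and 19 of the 20 were below 0 (median -0.18). Abat, the transaminase of the transmitter GABA, was 6.93 to 21.0 against 16.2 to 49.0 CPM with overlap (1.27 ± 0.25, adjusted p = 0.0042). Cpt1a, the gate for fatty acids into mitochondria, rose by 0.46 ± 0.12 (adjusted p = 0.0451, and above 0.05 in 8 of 12 fits with 1 library left out, up to 0.122 without lean replicate 6). The other 17 fatty acid oxidation genes tested were all below 0 and did not pass, 11 of them with an unadjusted p under 0.05, and the list's median was -0.44.

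Both Timp3 and Timp4, secreted inhibitors of matrix metalloproteases, rose. Timp3 was 510.4 to 632 CPM in the lean (median 533) and 741 to 1434 CPM in the regression mice (median 881). Among the lean mice replicate 4 (632 CPM) stood apart from the rest, regression replicate 6 was far the highest of all, and the groups did not overlap (0.82 ± 0.15, adjusted p = 0.00195). Timp4 was 67.9 to 189 CPM against 223 to 339 CPM, again without overlap (1.16 ± 0.24, adjusted p = 0.00643). They were the 2 of 16 genes of matrix proteases and inhibitors called, with a median of 0.31.

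Further rises were in Mdk, Bmp4, Runx2, Robo1, Ptprf and Irx2. Mdk, the heparin-binding growth factor midkine, was 2.63 to 4.47 CPM in the lean and 4.92 to 24.1 CPM in the regression mice, whose values were spread widely but did not reach the lean ones (1.85 ± 0.34, adjusted p = 0.00216). Bmp4, a signal that commits precursors to the adipocyte lineage, rose by 0.72 ± 0.17 (adjusted p = 0.025), as the 1 of 24 genes of TGF-beta and BMP signalling (median 0.30, and 0.14 without the 5 libraries with signal of other tissues). Runx2, a transcription factor of bone, was 5.42 to 9.20 against 10.8 to 21.3 CPM without overlap (1.07 ± 0.25, adjusted p = 0.0212). Robo1, a receptor of Slit guidance proteins, rose by 0.86 ± 0.23 (adjusted p = 0.047), and the receptor phosphatase Ptprf by 0.83 ± 0.18 (adjusted p = 0.00997). Irx2, a homeobox factor, rose by 0.86 ± 0.23 (adjusted p = 0.047). With 1 library left out Runx2 passed in 9 of the 12 fits, Bmp4 in 8, and Irx2 and Robo1 in 2. The adjusted p reached 0.0674 (Runx2), 0.105 (Irx2) and 0.116 (Robo1) without lean replicate 6 and 0.0808 (Bmp4) without lean replicate 1, and that of Ptprf was above 0.05 only without regression replicate 3 (0.0707).

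The rest of the largest rises were in genes of several kinds. Map1a, a protein that binds microtubules, was 17.3 to 44.8 CPM in the lean and 46.1 to 145 CPM in the regression mice without overlap (1.65 ± 0.30, adjusted p = 0.00185). Plekha7, of adherens junctions, rose by 1.13 ± 0.27 (adjusted p = 0.0269), and Osbp2, an oxysterol-binding protein, by 0.88 ± 0.17 without overlap (adjusted p = 0.00448). Fam124a was 28.3 to 37.9 against 52.1 to 81.2 CPM (0.88 ± 0.13, adjusted p = 0.000243). Spats2l (1.01 ± 0.18, adjusted p = 0.00159) and Klhl29 (0.83 ± 0.20, adjusted p = 0.0269) also rose, with overlap of the groups. Plekha7 passed in 7 and Klhl29 in 8 of the 12 fits with 1 library left out, with adjusted p-values of up to 0.0905 and 0.0804 without regression replicate 3.

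Further secreted and matrix proteins, picked after their values were seen, changed by less than 2-fold but were high in level. Ccdc80, a matrix protein secreted by fat, was 1018 to 1277 CPM in the lean and 1579.9 to 2117 CPM in the regression mice, with no overlap (0.67 ± 0.12, adjusted p = 0.00216). Dpt, dermatopontin, which binds collagen, was 692 to 1044 against 1064 to 1502 CPM, also with no overlap (0.63 ± 0.14, adjusted p = 0.016). Ccl11, the chemokine eotaxin, rose by 0.70 ± 0.14 (adjusted p = 0.0042) and Rarres2, the precursor of chemerin, by 0.50 ± 0.13 (adjusted p = 0.043). None of the 24 extracellular matrix genes of the list passed; all 24 were above 0, 4 had an unadjusted p under 0.05, and the median was 0.27. That median was 0.00 without the 5 libraries with signal of other tissues.

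Lor and Tchh, proteins of skin and hair, were called higher through 1 library. Lor was 63.0 CPM in regression replicate 3, at most 1.19 CPM in the other regression mice and at most 1.15 CPM in the lean mice; its adjusted p was 0.00499 with that library and 0.842 without it. Tchh was 51.4 CPM there and at most 1.81 CPM in the other 11 libraries (adjusted p = 0.00144, and 0.106 without it). They were the 2 of 6 skin and hair genes called.

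The genes by which fat is usually known did not pass at 6 weeks. None of the 30 fat genes chosen for naming was called. Adipoq, the hormone adiponectin, was 3188 to 3639 CPM in the lean and 3287 to 4176 CPM in the regression mice (0.19 ± 0.13, adjusted p = 0.459). Lep, leptin, was 314 to 782 against 691 to 1804 CPM with overlap (0.80 ± 0.36, adjusted p = 0.239). Pparg, the master factor of adipocytes, was at 0.15 ± 0.20 (adjusted p = 0.75) and the lipase Pnpla2 at 0.00 ± 0.18 (adjusted p = 0.999). The fructose transporter Slc2a5 was 44.0 to 93.2 CPM against 2.17 to 42.4 CPM, and did not pass although the groups did not overlap (-1.55 ± 0.50, adjusted p = 0.0945).

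Further lists of fuel use had medians below 0 and no called member. Over all genes 7467 of the 13899 tested were below 0, and no list was tested as a set. All 20 genes of de novo lipogenesis were below 0, 13 of them with an unadjusted p under 0.05, and the median was -0.68. Elovl6, which lengthens fatty acids, was 1903 to 4657 CPM in the lean (median 3349.9) and 202 to 2291 CPM in the regression mice (median 983), with overlap (-1.56 ± 0.50, adjusted p = 0.0991). Fasn, the fatty acid synthase, was 21962 to 36194 against 4984 to 26595 CPM, also with overlap (-0.68 ± 0.43, adjusted p = 0.422). Regression replicate 6 was the lowest for Fasn, Acly and Elovl6. All 28 respiratory chain genes were below 0, 22 with an unadjusted p under 0.05 (median -0.43), as were 18 of the 19 genes of the citrate cycle and pyruvate dehydrogenase, 15 of them with such a p (median -0.42).

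Of the 16 thermogenic genes 15 were below 0 and 11 had an unadjusted p under 0.05 (median -0.81, and -0.45 without the 5 libraries with signal of other tissues). Ucp1, the uncoupling protein of heat production, was 7.77 to 92.4 CPM in the lean and 0.349 to 31.9 CPM in the regression mice (-1.64 ± 0.81, adjusted p = 0.279). Its 2 highest values were in lean replicates 4 and 6, which also held the most muscle RNA, and without these and regression replicate 6 the difference was -0.11. Of the 20 cholesterol genes 9 were lower at an unadjusted p under 0.05 (median -0.54).

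In the other direction, all 7 genes of adipocyte enlargement were above 0 with an unadjusted p under 0.05 and none passed (median 0.80). Of the 18 macrophage genes none passed and the median was 0.22; without the 5 libraries with signal of other tissues it was -0.19. The medians of the 12 resident macrophage and 13 adipose progenitor genes were 0.42 and 0.29, with none called, and 0.27 and 0.11 without these 5 libraries. Summed CPM of the macrophage list was 1167 to 2861 in the lean and 1709 to 2867 in the regression mice, and that of the progenitor list 1963 to 3004 and 2388 to 3500.1; their part in the higher matrix genes was not tested.

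**Figure D3:**
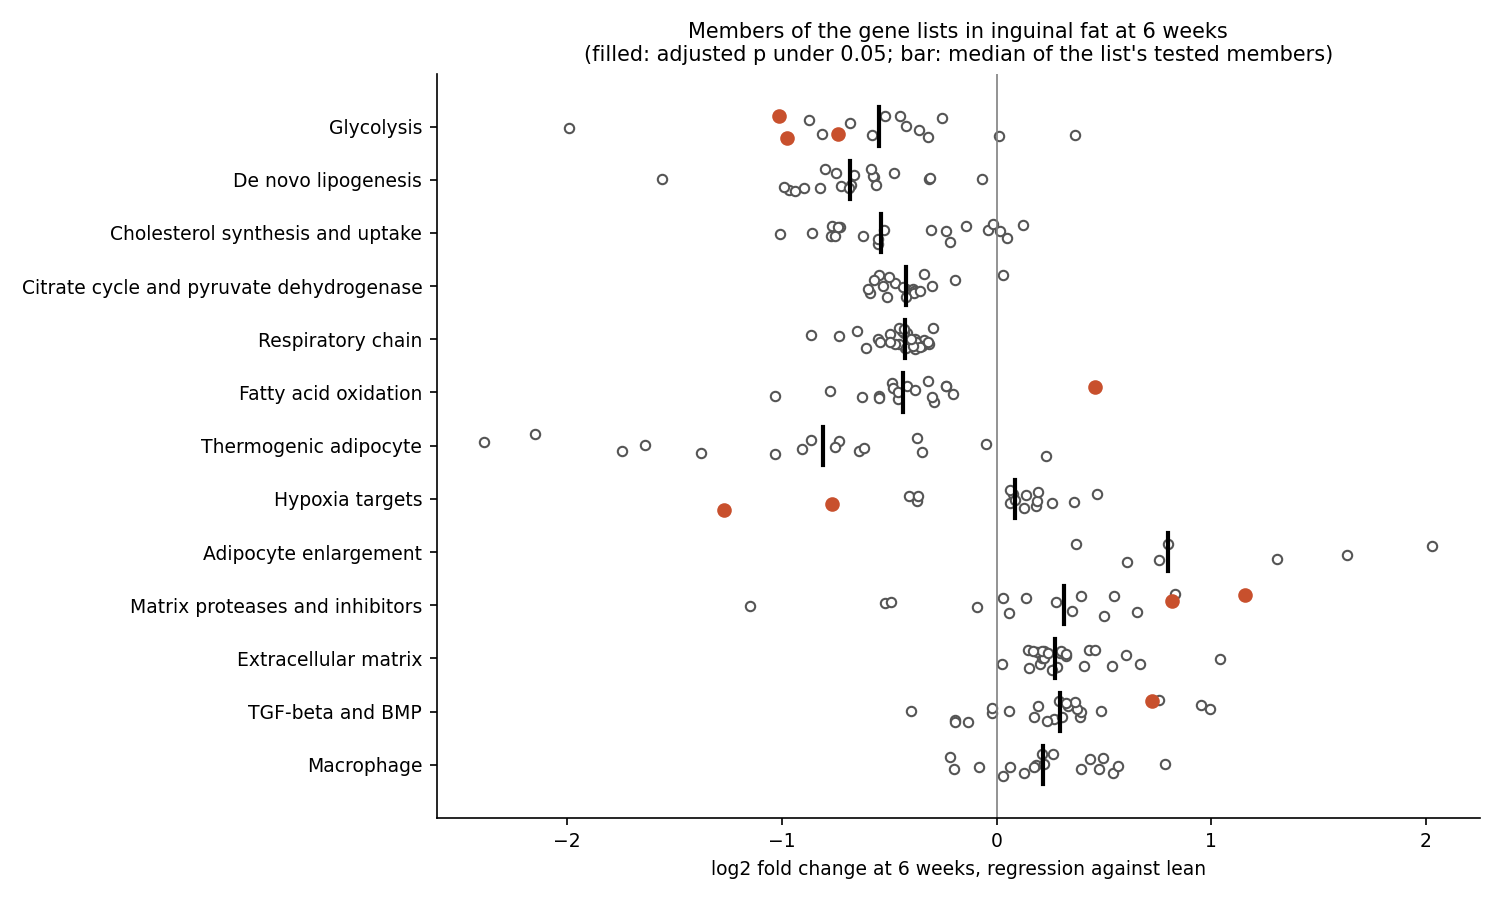
Log2 fold change at 6 weeks of each tested member of 13 gene lists (points; filled where the adjusted p is under 0.05), with the median of the list as a bar. Glycolysis has 3 called members below 0 and a median of -0.55, while lipogenesis (median -0.68), respiratory chain (-0.43) and thermogenic genes (-0.81) have none.

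Most of the 6-week differences had been there in obesity. The comparisons at different times share no library. Of the 77 higher genes 54 (70.1%) were called higher in obese mice, where 14.7% of all genes tested were; of the 67 lower genes 51 (76.1%) were called lower, where 15.5% were. These are 2.65% of the genes called higher and 2.36% of those called lower in obesity, and none of the 144 was called in the opposite direction. At 2 weeks 45 (58.4%) of the higher and 47 (70.1%) of the lower genes were called, against 9.44% and 9.37% of all genes.

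The difference itself changed from obesity to 6 weeks for 192 genes (1.38%), 120 upward and 72 downward. Of the 20 lipogenesis genes 8 changed, all upward. The difference of Slc2a5 moved up by 6.04 ± 0.96 on the log2 scale (adjusted p = 0.000428), that of Elovl6 by 4.06 ± 0.75 (0.0039), of Acly by 3.04 ± 0.62 (0.00773), of Fasn by 2.67 ± 0.64 (0.0226), of Acaca by 2.66 ± 0.56 (0.00902) and of Scd1 by 1.92 ± 0.38 (0.00594). Mean Elovl6 had been 72.9 ± 72.7 CPM (SD, n = 5) in obese and 3574 ± 979 CPM (SD, n = 6) in lean mice, and at 6 weeks was 1152 ± 794 CPM in regression and 3388 ± 1185 CPM in lean mice (n = 6 each). The differences of Pnpla2 (1.00 ± 0.27, adjusted p = 0.0478) and Pparg (1.07 ± 0.29, adjusted p = 0.0481) moved up too. The count was 114 without regression replicate 1 or 4, 122 without regression replicate 2, 124 without lean replicate 2, 126 without lean replicate 4 and 301 without regression replicate 6.

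Sorcs2 showed a difference that had shrunk and was still present. Its mean was 2.35 ± 0.215 CPM (SD, n = 5) in obese mice, 4.71 ± 1.22 at 2 weeks, 19.3 ± 14.2 at 6 weeks and 20.3 ± 8.80 at 12 weeks (n = 6 each), against 50.9 to 93.5 CPM in the 4 lean groups. The difference moved up by 2.94 ± 0.58 from obesity to 6 weeks (adjusted p = 0.00594). Pdk1 (1.61 ± 0.29, adjusted p = 0.00287) and Stard10, a lipid transfer protein picked after its values were seen (1.30 ± 0.31, adjusted p = 0.0217), were the others of the 67 lower genes with such a change. For the other 64, no change from obesity passed. Egln3 went from -2.50 to -1.27 (change 1.23, adjusted p = 0.0889) and Pth1r from -2.49 to -1.50 (change 0.99, adjusted p = 0.192).

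A smaller set was not called in obesity, 23 of the 77 higher and 16 of the 67 lower genes, and among the higher ones Mdk, Timp3, Timp4, Runx2, Osbp2 and Irx2 were named above. Mdk was 3.81 ± 1.25 CPM in obese and 3.38 ± 1.21 CPM in their lean controls, and 14.5 ± 7.31 against 5.00 ± 2.02 CPM at 2 weeks (1.53, adjusted p = 0.00139). Its difference at 6 weeks was not shown to exceed that in obesity (change 1.67, adjusted p = 0.0749), nor was that of Timp4 (change 0.69, adjusted p = 0.298) or Timp3 (change 0.52, adjusted p = 0.21). For 4 higher genes the change from obesity passed. These were Parp9, a partner of an antiviral ubiquitin ligase (0.48 ± 0.10, adjusted p = 0.0105), Stc2, a secreted glycoprotein (1.03 ± 0.26, adjusted p = 0.0326), Mfsd7c (1.56 ± 0.37, adjusted p = 0.0226) and Lor, whose level rests on 1 library. Parp9, Stc2, Mfsd7c and Dtx3l were picked after their values were seen. Parp9 was 69.8 to 91.4 CPM in the lean and 103 to 118 CPM in the regression mice at 6 weeks, with no overlap, and Dtx3l, its neighbour and that ligase, was higher by 0.52 ± 0.12 (adjusted p = 0.0262). None of the 18 genes of the interferon response list, which holds neither, was called.

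Between 2 and 6 weeks the difference changed for 30 genes (0.216%), 14 upward and 16 downward. Elovl6 (4.01 ± 0.72, adjusted p = 0.0164), Slc2a5 (3.52 ± 0.77, adjusted p = 0.046), Acly (2.67 ± 0.60, adjusted p = 0.046) and Scd1 (1.85 ± 0.37, adjusted p = 0.0267) were among those that moved up. Of the 144 genes only Tchh and Slc35b1, a nucleotide-sugar transporter picked after its values were seen (-0.83, adjusted p = 0.0164), had such a change. The 30 became 53 without lean replicate 5, 80 without regression replicate 6 and 2 to 9 without any 1 of the other 10.

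At 12 weeks 4 genes of all tested were called (0.0288%; 2067 or 14.9% at an unadjusted p under 0.05), and none of the 144 was among them. The 4, picked after their values were seen, were the transcription factors Cebpb (-1.50) and Klf6 (0.78), Catsperg1 (1.12) and Prickle1 (0.64). Of the 77 higher genes 70 kept their sign, with a median of 0.27 in place of 0.63; of the 67 lower genes 57 did, with a median of -0.22 in place of -0.82. Bcat1 was at 1.496 (adjusted p = 0.0507), Map1a at 1.23 (0.117), Klf14 at 1.19 (0.187) and Sorcs2 at -1.32 (0.125). No change from 6 to 12 weeks passed in edgeR (0 genes, 0%), where 1023 genes had an unadjusted p under 0.05 (7.36%) and DESeq2 called 21, so the loss of calls is not shown to be a loss of difference. Without regression replicate 6 edgeR called 209 genes. Atp1b2 (0.63) and Tmem56 (0.33) had turned positive at 12 weeks, when the median of the 14 muscle genes tested was 2.31, against -2.60 at 6 weeks. Neither gene was called at 12 weeks, and a link of their values with muscle RNA was not tested.

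**Figure D4:**
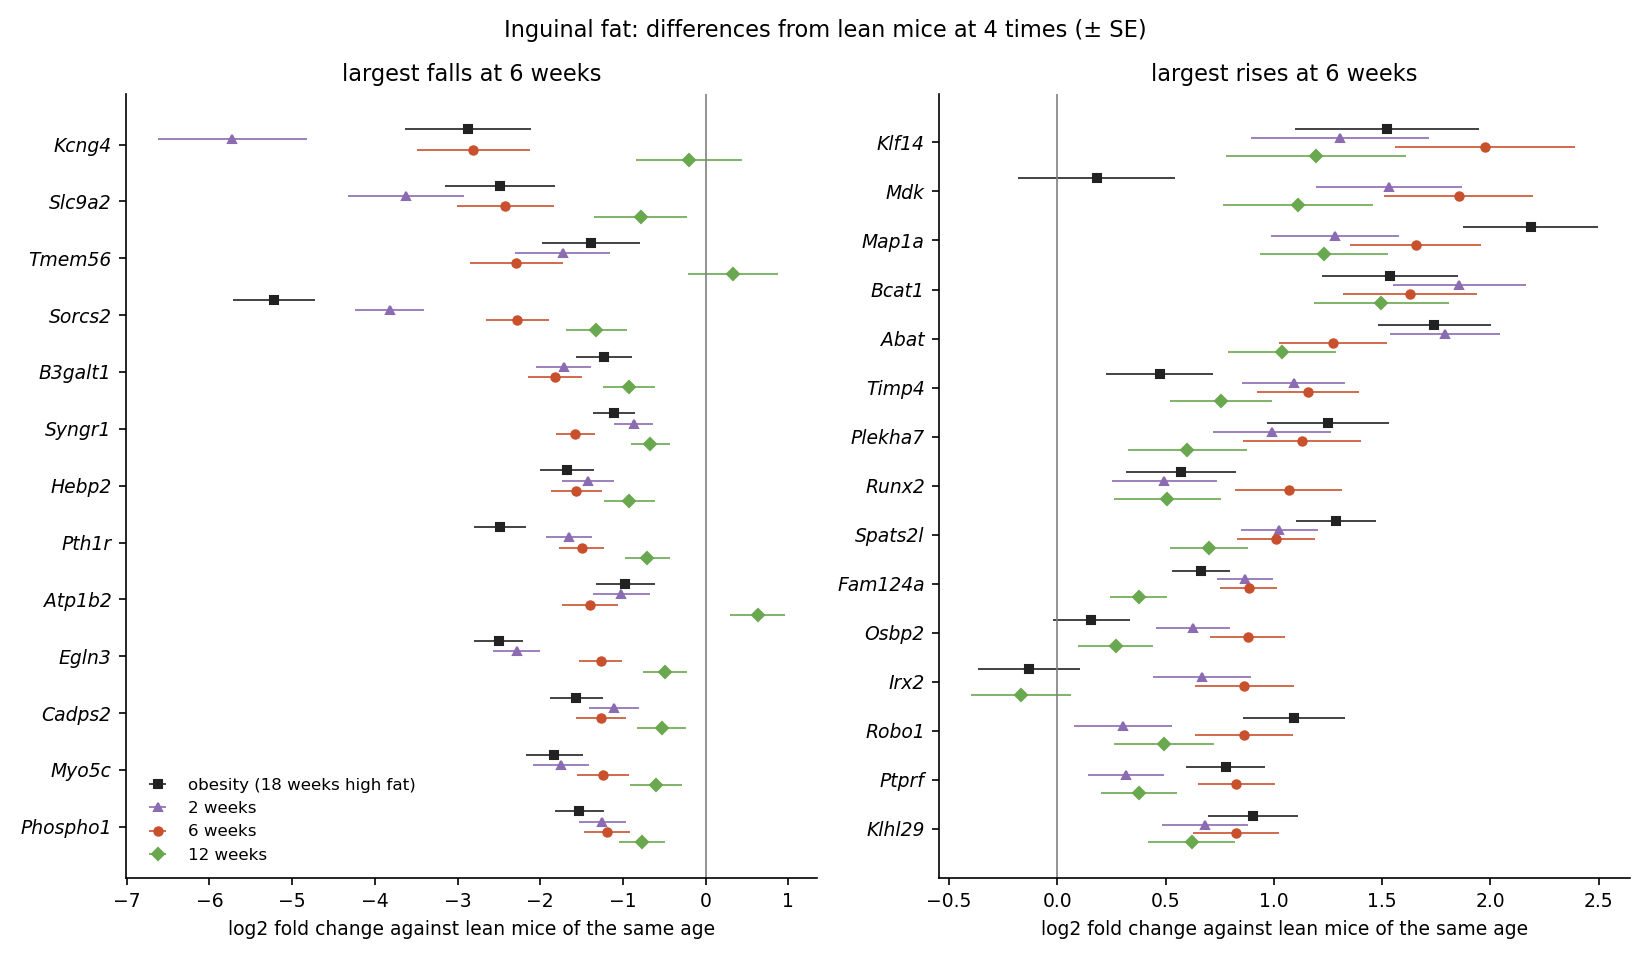
Log2 fold change (± SE of the fit) from lean mice of the same age in obesity and after 2, 6 and 12 weeks of the second diet for 13 of the largest falls and the 15 largest rises at 6 weeks among genes with at least 5 CPM. The genes were chosen by the 6-week value; Sorcs2 goes from -5.22 to -1.32, while Mdk is 0.18 in obesity and 1.85 at 6 weeks.

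Few of these genes were called at 6 weeks in the epididymal fat of the same mice, a depot beside the testis, though most had the same sign. The sign was the same for 58 of the 76 higher genes tested there (median log2 fold change 0.18) and for 58 of the 67 lower genes (median -0.25). Of the 77 genes higher in inguinal fat, 76 of them tested there, 14 were called higher, against 5.56% of all genes tested in that depot, and of the 67 lower genes 7 were called lower, against 2.02%; none was called in the opposite direction. Fam124a (0.66, adjusted p = 0.00372), Timp3 (0.51, adjusted p = 0.00799), Runx2 (1.40, adjusted p = 0.00591) and Robo1 (0.90, adjusted p = 0.00699) were higher in both depots. Slc9a2 (-1.92, adjusted p = 0.00799), Tmem56 (-1.32, adjusted p = 0.0158) and Cadps2 (-1.22, adjusted p = 0.0185) were lower in both.

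In a fit of both depots together (94 libraries, blocked by mouse), 88 of 14749 genes had a difference that differed between the depots (0.597%). Of the 77 higher genes 11 were more so in inguinal fat (0.312% of all genes) and of the 67 lower genes 10 (0.285%). Since these 144 were chosen by their inguinal value, this share is a description. Pkm (-0.998 ± 0.18, adjusted p = 0.00438), Gpi1 (-0.65 ± 0.14, adjusted p = 0.0105) and Egln3 (-1.02 ± 0.26, adjusted p = 0.0463) had a lower log2 fold change in inguinal than in epididymal fat, as did B3galt1 (-1.81 ± 0.34, adjusted p = 0.00496) and Syngr1 (-2.08 ± 0.43, adjusted p = 0.0105). Timp4 (1.10 ± 0.23), Abat (1.38 ± 0.28) and Map1a (1.10 ± 0.23) had a higher one, with adjusted p-values of 0.0105, 0.0105 and 0.0107. For Sorcs2 (-1.29 ± 0.83, adjusted p = 0.485) and Klf14 (0.85 ± 0.38, adjusted p = 0.284) no difference between the depots passed. Ucp1 was called higher in epididymal fat (3.86 ± 1.24, adjusted p = 0.0457), where inguinal fat had -1.64; the difference between the depots did not pass (-5.29 ± 1.43, adjusted p = 0.0607). On the 4 groups at 6 weeks alone the count of genes was 261. Without lean replicates 1 to 6 in turn it was then 26, 133, 103, 146, 300 and 93, and without regression replicates 1 to 6 it was 99, 44, 98, 910, 4 and 70.

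**Figure D5:**
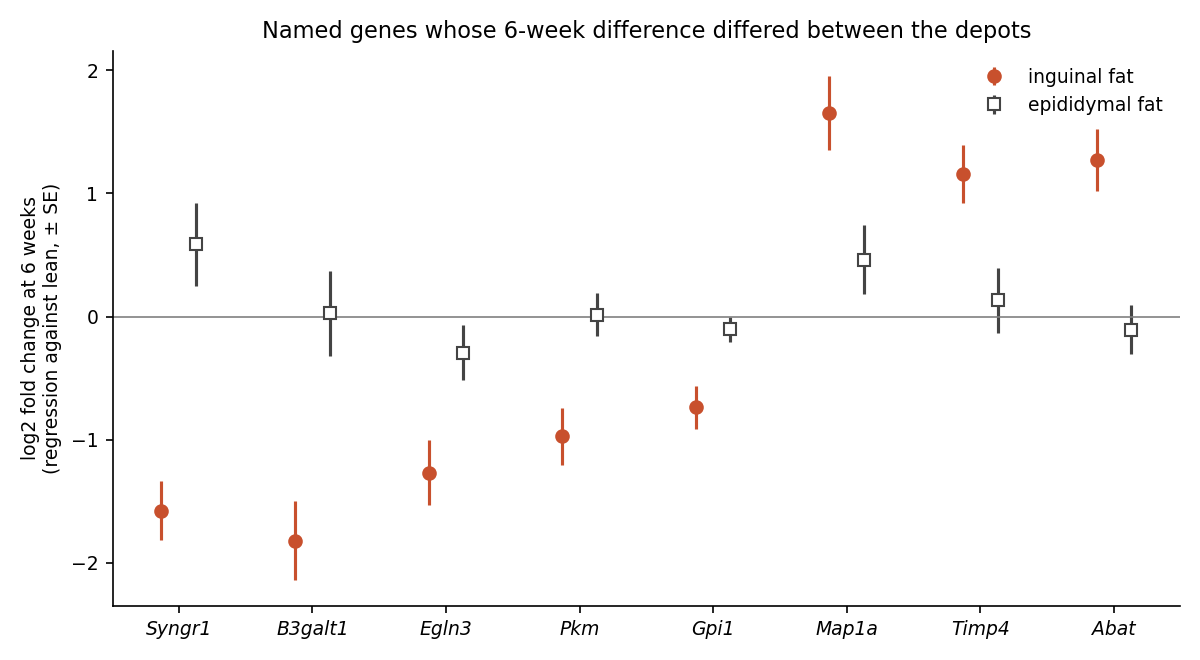
Log2 fold change of regression against lean mice at 6 weeks (± SE of the fit) in inguinal (filled) and epididymal fat (open) for the 8 named genes whose difference differed between the depots. In inguinal fat all 8 lie between -1.82 and 1.65 and away from 0, and in epididymal fat between -0.29 and 0.59.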

How the data were processed

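Poly(A) RNA of 94 fat samples was sequenced in pairs of reads. The authors deposited raw counts per gene, with no normalization; STAR 2.4.1c, mm10 and DESeq2 1.38.3 in R 4.2.2 stand in the submitters' processing notes, while for the counting program, annotation and strand setting the sources used here give nothing. Per the file headers, the authors' deposited DESeq2 results hold log2 fold changes and p-values, used for 1 count of shared calls, and also a mean of normalised counts (a signal) and a test statistic (a score), which were not used. All 20411 rows of the count table named a gene.

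Groups were taken from the sample titles. Genes passing filterByExpr (13899) were fitted in edgeR 4.0.16 under R 4.3.3 (TMM normalization, quasi-likelihood F-test) over all 47 inguinal libraries, with 1 coefficient per group, and p-values were adjusted by Benjamini-Hochberg over all genes tested. Log2 fold changes are regression against lean as given by this fit, with an SE computed from the fold change and its F statistic. A prior count of 2 entered the log CPM behind the tissue signals and the correlation of replicates, and not these fold changes. Adjusted p-values in the text are from this test unless another is named. CPM are counts scaled by the TMM-normalized library size. Depots were compared in a fit of all 94 libraries, blocked by mouse, and limma 3.58.1 and DESeq2 1.42.0 served for alternatives. The test was run on simulated counts of 13780 genes with known changes at 6 weeks. It recovered 64.2% of the genes changed 1.5-fold, 95.5% of those changed 2-fold and 95.5% of those changed 4-fold, with 10 false calls. These figures describe the simulated counts only. They were not shown to hold for the real libraries, where the calls ran from 55 to 330 with 1 library left out.

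The members, gene lists and tests were chosen with earlier results of these data known; 1 list, on glycogen, was added after the values were seen. Named genes were the 15 largest rises and 15 largest falls among called genes (standard symbol, mean of at least 5 CPM, no library with over 50% of the higher group's CPM), 30 fat genes, called members of the lists, and called genes with most of their CPM in 1 library, 68 in all; some genes that the rule or a list would take are not reported here, and remain in the fits and in counts over all genes. The p-values measure the spread between these mice. In the 6-week groups no 2 libraries were alike within sampling noise (chi-square per degree of freedom of at least 9.55 in 30 pairs). Same-numbered replicates correlated at -0.51 to 0.63, so the numbers were not taken to pair the mice. Gene positions are from GENCODE (mm10) and promoters from RefSeq (GRCm38.p6).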

Additional observations from a re-analysis of the deposited data

Results flagged for a closer look

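In 6 of 84 groups checked 1 library lay far from the other 5, and chance flags about 1 in 20 groups. Fam124a was 81.2 CPM in regression replicate 6 and Timp3 was 632 CPM in lean replicate 4. Lor (63.0 CPM) and Tchh (51.4 CPM) stood out in regression replicate 3, the library whose skin and hair markers summed to 263 CPM. B cell and lymph node markers summed to 379 CPM in lean replicate 5.

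The difference between regression and lean mice differed between the depots for 8 named genes. Relative to epididymal fat the inguinal log2 fold change was lower for Syngr1 (-2.08), B3galt1 (-1.81), Egln3 (-1.02), Pkm (-0.998) and Gpi1 (-0.647), and higher for Abat (1.38), Map1a (1.10) and Timp4 (1.10).

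Relative to the difference in obesity, that at 6 weeks was higher for 11 named genes. These were Slc2a5 (6.04), Lor (4.45), Elovl6 (4.06), Acly (3.04), Sorcs2 (2.94), Fasn (2.67), Acaca (2.66), Scd1 (1.92), Pdk1 (1.61), Pparg (1.07) and Pnpla2 (1.00). Relative to the difference at 2 weeks it was higher for Tchh (4.29), Elovl6 (4.01), Slc2a5 (3.52), Acly (2.67) and Scd1 (1.85). The values of Lor and Tchh rest on regression replicate 3.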

How the results depend on the processing

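The 144 genes at 6 weeks were 77 higher and 67 lower. These counts were 228 and 201 by DESeq2, 143 and 77 with upper-quartile scaling, and 231 and 145 with the compared groups fitted alone. They were 114 and 73 with DESeq2 size factors, 65 and 46 without a filter on low counts, 107 and 90 with a filter at 1 CPM, 75 and 66 with robust weighting, and 110 and 95 with a term for the 2 series of mouse numbers. Replicates 1 to 3 alone gave 3 and 0, and replicates 4 to 6 alone 3 and 2. Runs of mouse numbers as a random block (correlation 0.123) gave 14 and 17, and muscle, lymph node and skin signals as terms 26 and 17. Of the alternatives chosen after seeing the data, the muscle signal as a term gave 67 and 27, leaving out 3 libraries 26 and 16, and leaving out 5 gave 0 and 1. Leaving out 1 library gave 33 to 171 higher and 22 to 187 lower. In these fits 135 to 144 of the 144 genes kept their sign, where those that did not include genes removed by a filter. The fits share libraries with the one that chose the genes, so this count is a description.

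The change from obesity (192 genes, 1.38% of those tested) was 2.92% by DESeq2, 0.724% without a filter, 4.61% with the compared groups alone and 0.82% to 2.17% with 1 library left out. The change from 2 weeks (30) was 145 by DESeq2, 4 without a filter, 59 with the series term and 2 to 80 with 1 library left out. The change from 6 to 12 weeks (0 in edgeR) was 21 by DESeq2, 1 without a filter and 0 to 209 with 1 library left out. The depot difference (88) was 261 on the 4 groups at 6 weeks alone. In that fit, an alternative chosen after seeing the data, it was 26, 133, 146 and 300 without lean mice 1, 2, 4 and 5, and 44, 910 and 4 without regression mice 2, 4 and 5; the planned version over 94 libraries was not run.

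With the replicate number as a block the 6-week counts were 78 and 73, the change from obesity 1.47%, the change from 2 weeks 51 and that from 6 to 12 weeks 0. Of the 6 same-numbered pairs 3 correlated above 0.1, and 1 library correlated best with its own number.

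Of 1900 values of named genes under the alternatives, 1525 kept direction and side of the threshold, 327 no longer passed and 7 newly passed. In 41, of 12 genes, the sign turned. In 3 of these the value had been called or lay more than 1 SE from 0: Fabp4 was 0.0187 in replicates 4 to 6 alone, Lor -0.18 with the 3 signals as terms and Ucp1 0.21 without 5 libraries. The other 38 were of 9 genes within 1 SE of 0 and not called. In replicates 1 to 3 alone Adrb3 was -0.0468, Cfd 0.0409, Dgat2 0.151, Insr 0.0183, Irs1 -0.0585 and Pnpla2 -0.143, and in replicates 4 to 6 alone Retn was 0.0186 and Srebf1 0.00746. With the 3 signals as terms Cfd was 0.18 and Lpl -0.0857, and with the muscle signal alone Cfd was 0.1305 and Srebf1 0.00309. Without 3 libraries Cfd was 0.0231, Dgat2 0.00998, Insr 0.00144 and Pnpla2 -0.0457, and without 5 Cfd was 0.0759 and Insr 0.0455. Irs1 was -0.0012 with the replicate block and Pnpla2 -0.00536 with the random block. Leaving out 1 library gave -0.0796 to 0.0942 for Adrb3, -0.124 to 0.0180 for Cfd, -0.189 to 0.0397 for Dgat2, -0.0782 to 0.0794 for Irs1, -0.0715 to 0.0680 for Pnpla2 and -0.147 to 0.0147 for Retn. The cause of these moves was not tested. Genes of low count, such as Pdzk1ip1 at 0 to 0.436 CPM in regression mice, are limited by depth.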
